A study of Mus musculus with 2 samples.

Results

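Receptors for the constant region of antibodies (Fc receptors) and sialic acid-binding lectins of the Siglec family were examined in mouse microglia by droplet single-cell RNA sequencing. The 10 genes were Fcgr1, Fcgr2b, Fcgr3, Fcgr4, Fcer1g, Fcrls, Siglech, Cd33, Siglece and Siglec1, taken by symbol from 31053 measured features, and all 10 were found. Levels were compared between 3304 cells of the wild-type (WT) library and 5007 cells of the library labelled IRF8KO. A further 98 cells of that library, 1.92% of its 5105 kept cells, had at least 2% of their UMIs in the neutrophil genes Camp, Ngp, S100a8, S100a9, Lcn2 and Ltf and were kept apart. Transcripts were counted by unique molecular identifiers (UMIs), tags that let copies of 1 captured molecule be counted once. The 5007 cells below this limit are called the main IRF8KO cells and the 98 the other IRF8KO cells.

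Both libraries came from untreated female C57BL/6 mice aged 3 months, and microglia of 3 mice of a genotype were pooled before sorting by flow cytometry. IRF8 is a transcription factor of the interferon regulatory factor family that is needed for normal development of microglia and other myeloid cells. The title of the second sample reads IRF8KO while its genotype entry reads WT, so the group rests on the title; the knockout allele is not given in the sources used here. Each group is 1 library from 1 pool, so no difference has a replicate check, no p-value was computed, and every interval is a 95% interval for counting error only.

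The main IRF8KO cells held 18980263 UMIs (median 2933 per cell) and the WT cells 18543061 (median 3204.5). Irf8 itself stood at 794 CPM (UMIs of a gene per 1000000 UMIs of the group) in WT cells, 669 CPM in the main IRF8KO cells and 123 CPM in the other IRF8KO cells. Where the deleted part of the gene lies is not given in the sources used here, so these levels check neither label. Of the 10 markers of microglia, all had at least 10 CPM in WT cells and 9 in the main IRF8KO cells, with summed levels of 30422 and 14687 CPM. The 10 markers of border macrophages summed to 265 CPM in WT cells, of which Stab1 made up 251 CPM. There 2 of the 10 had at least 10 CPM, and Ms4a7, Cd163, Lyve1, F13a1 and Clec12a were at 0. In the main IRF8KO cells they summed to 3376 CPM, none was at 0 and 6 of the 10 had at least 10 CPM. Lyve1 stood at 0.105 CPM there, and Folr2 was lower than in WT cells (0.211 against 1.73 CPM). The part of the microglia and border macrophage marker shifts in the differences below was not tested. The 10 neutrophil markers summed to 2.48 and 54.6 CPM and the 6 monocyte markers to 7.98 and 23.7 CPM. The 6 markers of plasmacytoid dendritic cells, which also carry Siglec-H, summed to 530 CPM in WT cells and 760 CPM in the main IRF8KO cells. Of these, Tcf4 went from 417 to 443 CPM, and Bst2 (109 to 278 CPM) and Irf7 (4.21 to 37.6 CPM) are also interferon-induced genes, while Ly6d and Klk1 were at 0 in both groups. Their part in the Siglech difference was not tested. Markers of T or NK cells (5 genes) and of mast cells or basophils (4 genes) had no UMI in either group. In all, 5 cell barcodes occurred in both libraries.

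Activating Fc gamma receptors bind IgG and signal through the common gamma chain, encoded by Fcer1g, whose immunoreceptor tyrosine-based activation motif (ITAM) recruits the kinase Syk. Fcgr2b encodes the inhibitory receptor, which carries an inhibitory motif (ITIM) and recruits the phosphatase SHIP1, so that the balance of both kinds sets the response of a macrophage to immune complexes. Siglecs read sialic acid on cell surfaces: most carry ITIMs, while Siglec-H signals through the ITAM adaptor DAP12, encoded by Tyrobp, and is a common marker of mouse microglia.

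The 3 activating receptor genes and Fcgr2b did not move as a block, and the promoter sequences of these 4 genes are shown. Each line gives the 250 bases before the RefSeq transcription start on GRCm38.p6, 5' to 3' on the gene's strand. Capitals mark matches to 4 motifs searched on both strands: the ETS-IRF composite (GGAA and GAAA with any 2 bases between), the core of the interferon-stimulated response element (GAAA and GAAA with any 2 bases between), TTCNNNGAA (the STAT-binding GAS element) and GAGGAA (core of the PU.1 site).
Fcgr1 (chr3:96293970-96294219, minus strand): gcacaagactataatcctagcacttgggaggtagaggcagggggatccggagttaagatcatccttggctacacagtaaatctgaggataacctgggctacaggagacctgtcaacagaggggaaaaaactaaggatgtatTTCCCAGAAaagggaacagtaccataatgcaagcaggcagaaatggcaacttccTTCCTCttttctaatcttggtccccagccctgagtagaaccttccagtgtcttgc
Fcgr4 (chr1:171018676-171018925, plus strand): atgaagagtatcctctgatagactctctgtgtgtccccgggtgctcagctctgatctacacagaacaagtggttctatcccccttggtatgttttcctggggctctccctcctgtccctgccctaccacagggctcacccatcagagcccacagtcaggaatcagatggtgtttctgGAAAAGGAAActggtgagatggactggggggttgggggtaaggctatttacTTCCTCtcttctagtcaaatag
Fcgr2b (chr1:170976072-170976321, minus strand): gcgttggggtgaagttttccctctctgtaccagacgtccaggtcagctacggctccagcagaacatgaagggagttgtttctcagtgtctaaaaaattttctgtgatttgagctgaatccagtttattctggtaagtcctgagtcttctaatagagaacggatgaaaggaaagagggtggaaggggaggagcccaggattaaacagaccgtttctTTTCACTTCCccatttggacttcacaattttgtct
Fcgr3 (chr1:171059404-171059653, minus strand): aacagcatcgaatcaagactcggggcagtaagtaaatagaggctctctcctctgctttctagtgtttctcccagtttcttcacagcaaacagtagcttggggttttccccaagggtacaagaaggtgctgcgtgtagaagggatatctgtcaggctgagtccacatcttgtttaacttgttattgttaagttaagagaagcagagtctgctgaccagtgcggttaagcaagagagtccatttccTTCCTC

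The Fcgr1 promoter held TTCCCAGAA, a match to TTCNNNGAA, from -109 to -101. Fcgr4 held GAAAAGGAAA, a match to the interferon-stimulated response element core, from -73 to -64. Fcgr2b held TTTCACTTCC, the reverse complement of an ETS-IRF composite, from -35 to -26, and Fcgr3 held only GAGGAA matches. Fcgr3 has 2 RefSeq starts, and the first is shown. The windows printed for Fcgr3 and Fcgr2b both lie inside the GENCODE gene of that name, and not before it. The RefSeq table held promoters for 9 of the 10 genes, all but Siglec1, and the other 5 are not printed. Over all 27025 promoters of the table, 2.38% held the ETS-IRF composite, 3.04% the interferon-stimulated response element core, 7.18% TTCNNNGAA and 23.1% GAGGAA. Of the 9 members, 1 held the first motif (Fcgr2b), 1 the second (Fcgr4), 2 the third (Fcgr1 and Siglech) and 6 the last. A match describes the letters of this window and not binding of a factor.

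Levels of the 10 genes split in both directions between the main IRF8KO cells and WT cells. The log2 ratio was below 0 for Fcgr1, Fcgr3, Fcgr2b, Siglech and Cd33 and above 0 for Fcgr4, Fcer1g, Fcrls, Siglece and Siglec1. Siglec1 was past 2-fold higher and Fcgr1 past 2-fold lower, so 1 of 10 was called in each direction. Siglec1 reached 10 CPM in the main IRF8KO cells only (24.3 CPM, against 0.216 CPM in WT cells), so it could be called only as higher. Over the 8859 genes with at least 10 CPM in either group, 5.61% were at least 2-fold higher and 9.28% at least 2-fold lower in the main IRF8KO cells. The median log2 ratio was 0.00 over the members and -0.28 over all of those genes, of which 25.1% were higher (48.2% under the trimmed mean of M values (TMM) scaling of edgeR).

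**Figure D1:**
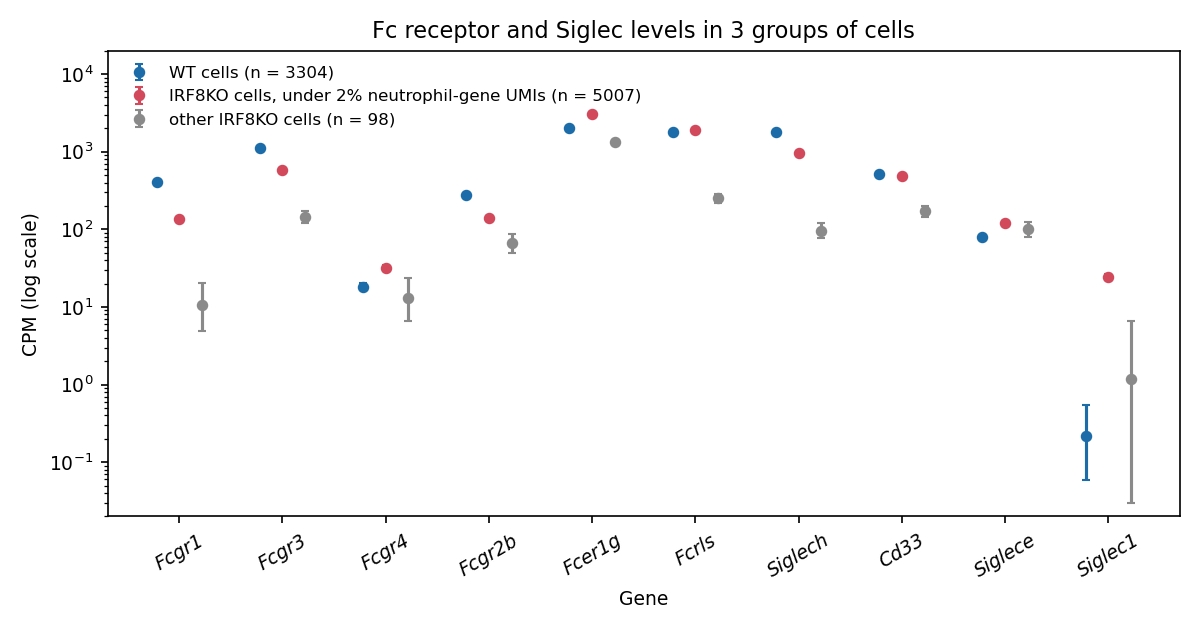
Level of each gene in CPM (log axis) in WT cells (blue), the main IRF8KO cells (red) and the other IRF8KO cells (grey); points are summed UMIs of 1 library and bars are exact 95% Poisson intervals. Fcgr1, Fcgr3, Fcgr2b and Siglech are highest in WT cells, and Siglec1 stands at 0.216 CPM there against 24.3 CPM in the main IRF8KO cells.

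Among the activating receptors, Fcgr1 encodes the high-affinity IgG receptor CD64. Its level was 401 CPM in WT cells (95% interval 392 to 411, 7443 UMIs), 136 CPM in the main IRF8KO cells (131 to 142) and 10.7 CPM in the other IRF8KO cells (4.88 to 20.3, 9 UMIs). The log2 ratio of the main IRF8KO cells over WT was -1.56 (-1.62 to -1.49), a level 2.95-fold lower. After each cell was thinned to 2000 UMIs to even out depth, 55.0% of WT cells (1661 of 3019) and 22% of the main IRF8KO cells (994 of 4509) had an Fcgr1 UMI; without thinning the shares were 74.9% and 34.3%. Positive cells also held fewer UMIs, 1.47 on average against 1.22 after thinning. Fcgr1 was thus lower both in the share of cells with a UMI and in the number per positive cell.

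Fcgr3 encodes the low-affinity activating receptor CD16 and was the most abundant of the 4 Fc gamma receptor genes by UMIs in all 3 groups. It stood at 1117 CPM in WT cells (1102 to 1133), 582 CPM in the main IRF8KO cells (571 to 593) and 145 CPM in the other IRF8KO cells (120 to 173), in an order without overlap of the intervals. Of the 122 UMIs of the other IRF8KO cells, 61 came from 8 of the 98 cells, and the remaining 90 cells, those with at least 30% of their UMIs in the 6 neutrophil genes, stood at 88.2 CPM (67.5 to 113). The log2 ratio of the main IRF8KO cells over WT was -0.94 (-0.97 to -0.91). The thinned share of cells with a UMI was 86.8% in WT and 65.8% in the main IRF8KO cells.

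Fcgr4 encodes an activating receptor of intermediate affinity, and it went the other way. WT cells held 18.2 CPM (16.3 to 20.3, 338 UMIs), the main IRF8KO cells 32.2 CPM (29.7 to 34.8, 611 UMIs) and the other IRF8KO cells 13 CPM (6.51 to 23.3, 11 UMIs). The level in the main IRF8KO cells was 1.77-fold that of WT (1.54 to 2.02; under TMM scaling the log2 ratio was 1.07, past 2-fold), while WT and the other IRF8KO cells overlapped. Of those 11 UMIs, 8 came from 8 of the 98 cells, those with under 30% of their UMIs in the 6 neutrophil genes. The remaining 90 cells held 3 UMIs (4.34 CPM, 0.894 to 12.7), below the WT interval on totals that include the 6 genes. With totals free of the 6 genes they stood at 7.82 CPM. No interval was computed for that value, so a difference from WT is not settled. The thinned share of cells with a UMI was 3.25% in WT and 5.79% in the main IRF8KO cells, and the unthinned shares, 8.47% and 8.99%, were closer. In the last 400 transcript bases 4.32% of Fcgr4 sequence words of 31 bases also occur in other genes, against 0% for Fcgr1, Fcgr2b and Fcgr3.

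Fcgr2b, the inhibitory receptor gene, stood at 273 CPM in WT cells (266 to 281), 141 CPM in the main IRF8KO cells (136 to 147) and 66.4 CPM in the other IRF8KO cells (50.2 to 86.3). Its log2 ratio of the main IRF8KO cells over WT was -0.95 (-1.02 to -0.88), so it was lower by nearly the same factor as Fcgr3. The thinned share of cells with a UMI was 39.2% in WT and 21.6% in the main IRF8KO cells.

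Fcer1g, the gamma chain that the activating receptors need for surface expression and signalling, was higher while Fcgr1 and Fcgr3 were lower. It stood at 2027 CPM in WT cells, 3101 CPM in the main IRF8KO cells and 1320 CPM in the other IRF8KO cells, and the log2 ratio of the main IRF8KO cells over WT was 0.61 (0.59 to 0.63). Nearly every cell had a UMI, 97.4% of thinned WT cells and 99.5% of thinned main IRF8KO cells, so the difference lay in UMIs per positive cell, 4.18 against 6.42 after thinning. There were 1.32 Fcer1g UMIs per UMI of the 3 activating receptors in WT cells and 4.13 in the main IRF8KO cells, a log2 change of 1.65 (1.61 to 1.68). This ratio was added after the values were seen.

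Fcgr2b, Fcgr4 and Fcgr3 lie side by side on chromosome 1 (GENCODE M21, GRCm38: 170958617 to 170976547 on the minus strand, 171018920 to 171029761 on the plus strand and 171051174 to 171064935 on the minus strand), together within 106.3 kb. The gene between the other two, Fcgr4, was thus higher while both neighbours were lower. Fcer1g lies on the same chromosome at 171229572 to 171234365, minus strand. Of the genes between Fcgr3 and Fcer1g, those with at least 10 CPM in either group were Sdhc, which encodes a subunit of succinate dehydrogenase and had a log2 ratio of -0.12, and Tomm40l (-0.73). Fcgr1 lies on chromosome 3 at 96282909 to 96293969, minus strand.

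**Figure D2:**
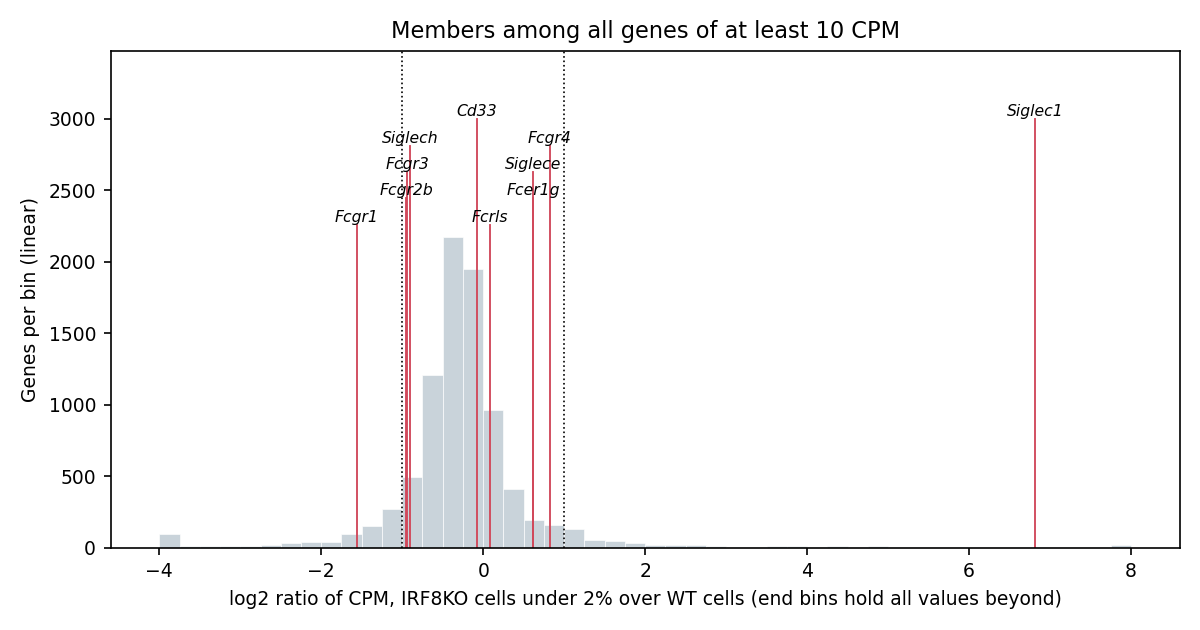
Histogram of the log2 ratio of CPM, main IRF8KO cells over WT cells, for the 8859 genes with at least 10 CPM in either group (bars, genes per bin), with the 10 genes as red lines; dotted lines mark 2-fold, and the end bins gather all values beyond them. Fcgr1 at -1.56 and Siglec1 at 6.82 lie outside the dotted lines and the other 8 inside.

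The activating to inhibitory balance, taken as UMIs of Fcgr1, Fcgr3 and Fcgr4 per UMI of Fcgr2b, differed little between the main IRF8KO cells and WT although the total of the 4 genes was much lower. WT cells held 5.63 activating UMIs per Fcgr2b UMI (5.46 to 5.80; 28500 against 5063) and the main IRF8KO cells 5.31 (5.09 to 5.53; 14247 against 2685). The log2 change was -0.085 (-0.159 to -0.011). The other IRF8KO cells held 2.54 (1.85 to 3.52; 142 against 56), a log2 change of -1.07 from the main IRF8KO cells (-1.53 to -0.59). Because capture differs between genes, only the change of such a ratio between groups can be read, not its size.

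Behind the close ratios, the parts of the activating sum moved in opposite directions. Fcgr1 made up 22.2% of Fc gamma receptor UMIs in WT cells (21.7 to 22.6) and 15.3% in the main IRF8KO cells (14.7 to 15.8). Fcgr4 went from 1.01% (0.903 to 1.12) to 3.61% (3.33 to 3.90), and Fcgr3 from 61.7% to 65.3%. The Fcgr2b share was 15.1% (14.7 to 15.5) and 15.9% (15.3 to 16.4). Per UMI of Fcgr2b, Fcgr3 stood at 4.09 in WT and 4.12 in the main IRF8KO cells, a log2 change of 0.01 (-0.07 to 0.08), Fcgr1 changed by -0.61 (-0.70 to -0.52) and Fcgr4 by 1.77 (1.56 to 1.98). These single-receptor ratios were added after the values were seen. With Fcgr1 left out of the activating set the change turned to 0.063 (-0.013 to 0.138), and with Fcgr3 left out it was -0.369 (-0.459 to -0.278), so its direction depended on Fcgr1.

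A wider set put Fcgr1, Fcgr3, Fcgr4, Fcer1g and Siglech against Fcgr2b, Siglece and Cd33. It gave 6.21 in WT cells (6.11 to 6.32), 6.44 in the main IRF8KO cells (6.32 to 6.55) and 4.67 in the other IRF8KO cells (4.11 to 5.33). The log2 change of the main IRF8KO cells over WT was 0.05 (0.02 to 0.09), opposite in sign to that of the Fc gamma set and also small. In it the higher Fcer1g stood against the lower Siglech, Fcgr1 and Fcgr3. Fcer1g held 58851 of the 91349 activating UMIs in the main IRF8KO cells and 37580 of 99486 in WT cells. Cd33 held 9199 of the 14190 inhibitory UMIs in the main IRF8KO cells and 9486 of 16015 in WT cells. No gene was left out of this set in turn, so how far the size and sign of the change rest on them was not tested.

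Within single thinned cells, an activating receptor and Fcgr2b were found together in 36.7% of WT cells (34.9 to 38.4) and 16% of the main IRF8KO cells (14.9 to 17.1). No UMI of any of the 4 genes was found in 4.14% and 19.6%. Fcgr2b was about as frequent in cells with as in cells without an activating UMI, 39.3% and 37.8% in WT cells and 21.4% and 22.3% in the main IRF8KO cells. In thinned cells a pair missed by sampling cannot be told from a pair that is absent.

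**Figure D3:**
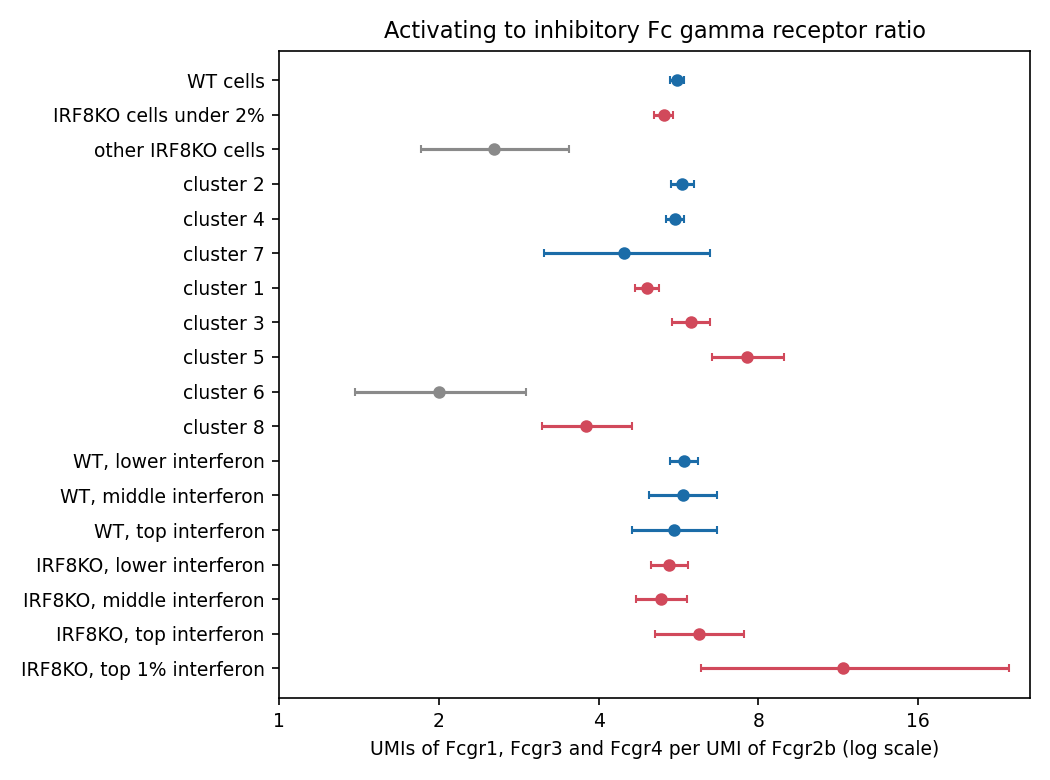
UMIs of Fcgr1, Fcgr3 and Fcgr4 per UMI of Fcgr2b (log axis) in the 3 groups, in clusters of at least 40 cells and in ranges of interferon-gene share (blue WT, red IRF8KO, grey neutrophil-like or other IRF8KO); bars are exact 95% conditional binomial intervals. WT cells at 5.63 and the main IRF8KO cells at 5.31 lie close, the other IRF8KO cells lie lower at 2.54, and the IRF8KO cells of the top 1% in interferon share lie highest at 11.5.

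Of the Siglecs, Siglech was lower in the main IRF8KO cells. It stood at 1802 CPM in WT cells (1782 to 1821), 962 CPM in the main IRF8KO cells (948 to 976) and 96.1 CPM in the other IRF8KO cells (76.3 to 119), with a log2 ratio of -0.91 (-0.93 to -0.88) between the first and second group. The thinned share of cells with a UMI was 95.7% in WT, 80.1% in the main IRF8KO cells and 4.12% in the other IRF8KO cells. Tyrobp, the adaptor through which Siglec-H signals, moved the other way, from 2381 CPM in WT cells to 3859 CPM in the main IRF8KO cells (log2 ratio 0.70). Of the words of 31 bases in the last 400 transcript bases of Siglech, 12.7% also occur in other genes.

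Cd33 is counted here with the inhibitory Siglecs, after the human receptor, although the mouse protein has a different cytoplasmic tail. It was close to level, at 512 CPM in WT cells (501 to 522) and 485 CPM in the main IRF8KO cells (475 to 495), with a log2 ratio of -0.08 (-0.12 to -0.04) that turned to 0.18 under TMM scaling and 0.06 with totals free of mitochondrial and ribosomal protein genes. Detection was also close, 60.4% and 59.2% of thinned cells. In the other IRF8KO cells it stood at 172 CPM (145 to 202).

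Siglece encodes an ITIM-bearing Siglec of neutrophils, monocytes and microglia. It stood at 79.1 CPM in WT cells (75.1 to 83.2), 121 CPM in the main IRF8KO cells (117 to 127) and 101 CPM in the other IRF8KO cells (80.5 to 125), whose interval overlapped that of the main cells. The log2 ratio of the main IRF8KO cells over WT was 0.62 (0.52 to 0.72), and the thinned share with a UMI went from 14.1% to 20.9%. Siglece and Fcgr2b, both ITIM-bearing, thus differed in opposite directions: there were 3.45 Fcgr2b UMIs per Siglece UMI in WT cells and 1.16 in the main IRF8KO cells, a ratio added after the values were seen. Cells with Siglece or Cd33 but no Siglech UMI made up 2.68% of thinned WT cells (2.14 to 3.32) and 13.2% of the main IRF8KO cells (12.2 to 14.2).

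Siglec1 encodes sialoadhesin (CD169), an adhesion receptor of macrophages without an ITIM that is known to be induced by type I interferon. WT cells held 4 UMIs, each in a different cell (0.216 CPM, 0.059 to 0.552), and the main IRF8KO cells 462 UMIs in 399 cells (24.3 CPM, 22.2 to 26.7). The ratio was 113-fold (43.8 to 416), a log2 ratio of 6.82 (5.45 to 8.70), the highest of the 10. It rests on the 4 UMIs of WT cells: on the log2 scale with a pseudocount of 1 CPM it was 4.38. Of thinned cells, 0.033% in WT and 4.17% in the main IRF8KO cells had a UMI, and 1 of 97 of the other IRF8KO cells (1.03%, 0.026 to 5.61), in which the interval takes in the share of the main cells. By summed UMIs the other IRF8KO cells stood at 1.19 CPM (0.030 to 6.61). Without thinning 1.02% of them had a UMI (0.026 to 5.55), against 7.97% of the main IRF8KO cells (7.23 to 8.75). Both values lay below those of the main IRF8KO cells without overlap and rest on 1 UMI. Siglec1 lies on chromosome 2 at 131069220 to 131086765, minus strand.

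Fcrls encodes a secreted Fc receptor-like protein that is a common marker of mouse microglia. Its level was nearly the same in WT cells (1792 CPM, 1773 to 1811) and the main IRF8KO cells (1891 CPM, 1871 to 1910), with a log2 ratio of 0.08 (0.06 to 0.10). The thinned share with a UMI was 92.3% and 94.9%. Fcrls and Siglech, both microglia markers, thus differed from each other in the main IRF8KO cells. By CPM the former was near the WT level and the latter 1.87-fold below it. Under TMM scaling the log2 ratios were 0.33 for Fcrls and -0.65 for Siglech. In the other IRF8KO cells Fcrls stood at 251 CPM (219 to 288).

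In the other IRF8KO cells all 10 genes had a log2 ratio below 0 against the main IRF8KO cells, and 9 of 10 were at least 2-fold lower, against 44.9% of the 8798 genes with at least 10 CPM in either group (11.4% were at least 2-fold higher). The 6 neutrophil genes took 39.0% of the UMIs of these cells, which lowers the CPM of every other gene. With totals free of those genes, a scaling chosen after the data were seen, 5 of 10 were at least 2-fold lower, against 24.1% of 9053 genes (20.9% were at least 2-fold higher). These were Fcgr1 (-2.96), Fcgr3 (-1.30), Fcrls (-2.20), Siglech (-2.61) and Siglec1 (-3.65), while Fcgr2b (-0.38), Fcgr4 (-0.59), Fcer1g (-0.52) and Cd33 (-0.78) were below 0 by less and Siglece turned to 0.44. Of the 98 cells, 90 had at least 30% of their UMIs in the 6 genes; these 90 held 20 of the 212 Fcrls UMIs and 4 of the 81 Siglech UMIs, and the remaining 8 cells held 192 and 77. Fcer1g, Siglece and Cd33 were present in the 90 cells as well, with 762, 66 and 82 UMIs. Fcgr1 had 2 UMIs there and Siglec1 none. With totals free of the 6 genes, Fcgr4 (-2.04, 3 UMIs) and Cd33 (-1.18) were also past 2-fold lower in these 90 cells. Fcgr2b (-0.72) and Fcer1g (-0.64) were below the main IRF8KO cells by less, and Siglece stood at 0.50.

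Levels were then followed over clusters of cells built without the 10 genes. At Leiden resolution 0.5, the WT cells lay mainly in cluster 2 (2352 cells, median 2893.5 UMIs) and cluster 4 (873 cells, median 7921 UMIs), and 9 of the 10 genes differed by at most 1.21-fold between them; the exception, Siglec1, had 2 UMIs in each. The 3 clusters of at least 100 cells from the library labelled IRF8KO were cluster 1 (2450 cells, with Cxcl2 and Ms4a7 among its leading genes), cluster 3 (2173 cells, with Clec12a, Igf1 and Mrc1) and cluster 5 (333 cells, with Cxcl10, Rsad2 and Ifit1). Only 1 cluster could be named from its markers, the neutrophil-like cluster 6 (96 cells, all from the other IRF8KO cells), with Ngp, Camp, Lcn2 and S100a8 among its 10 leading genes.

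Across clusters 1, 3 and 5, Fcgr3 was even, at 586, 577 and 574 CPM. Fcgr2b was 150, 121 and 123 CPM and Siglech 909, 1087 and 962 CPM, in each case below both large WT clusters. Fcer1g ran from 3058 to 3282 CPM. At the finer resolution of 1.0, Fcer1g ran from 2737 to 4908 CPM over the IRF8KO clusters of at least 100 cells, a 1.79-fold range.

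Fcgr4, Siglec1 and Fcgr1 were uneven. Fcgr4 stood at 39.2 CPM in cluster 1 (35.6 to 43.0), 9.0 CPM in cluster 3 (6.72 to 11.8) and 70.0 CPM in cluster 5 (57.2 to 84.8), so that cluster 3 lay below both large WT clusters (16.1 and 19.5 CPM) and clusters 1 and 5 above them. Siglec1 was 22.3, 17.7 and 57.9 CPM. Fcgr1 was 116 CPM in cluster 1 (110 to 122), 135 CPM in cluster 3 (125 to 145) and 296 CPM in cluster 5 (269 to 325), the last still below the 392 and 408 CPM of the WT clusters. The activating to inhibitory ratio was 4.93 (4.68 to 5.2), 5.97 (5.51 to 6.48) and 7.63 (6.54 to 8.96) in clusters 1, 3 and 5. It was higher in cluster 3 than in cluster 1 although Fcgr4 was lower there. Fcgr2b was also lower in cluster 3, at 121 CPM against 150 CPM in cluster 1.

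**Figure D4:**
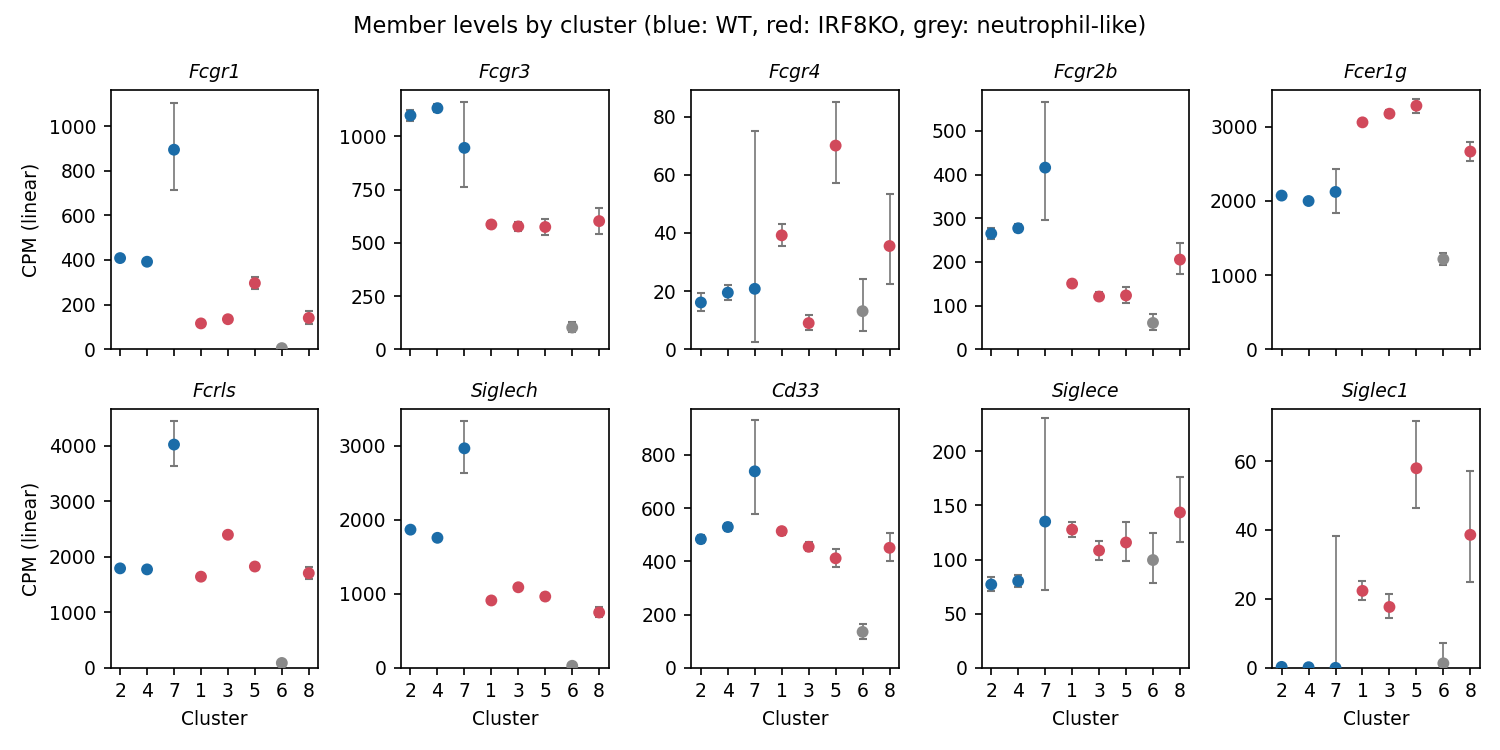
Level of each gene (CPM, linear axis from 0) in clusters of at least 40 cells at resolution 0.5, WT clusters in blue, IRF8KO clusters in red and the neutrophil-like cluster in grey; bars are exact 95% Poisson intervals. Fcgr3, Fcgr2b and Siglech lie lower in all large IRF8KO clusters than in the large WT clusters, while Fcgr4 ranges from 9.0 CPM in cluster 3 to 70.0 CPM in cluster 5.

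Cluster 8 (45 cells of the library labelled IRF8KO) was led by the MHC class II genes H2-Eb1, H2-Aa and H2-Ab1, with F13a1 and Cd163 among its 10 leading genes, and held the highest Fcgr2b level of the IRF8KO clusters of at least 40 cells, 205 CPM (172 to 243), with a ratio of 3.79 (3.12 to 4.62). Cluster 7 (71 cells, 70 of them WT) had a median of 1280 UMIs and an Fcgr1 level of 894 CPM (715 to 1104). At resolution 1.0 a cluster of 212 IRF8KO cells had Fcgr4 itself among its 10 leading genes, at 118 CPM (94.8 to 145), with the highest Fcer1g level of the large IRF8KO clusters, 4908 CPM; Fcgr1 there was 95.5 CPM (74.7 to 120).

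At resolution 1.0, 1 cluster held at least 20 cells of each library: 75 WT cells and 49 of the main IRF8KO cells, led by the early response and chemokine genes Egr3, Ccl4, Egr1 and Ccl3. Comparing the libraries within it was added after the data were seen. Fcgr1 was 268 CPM in its WT cells and 67.3 CPM in its IRF8KO cells, a log2 ratio of -2.0 (-3.00 to -1.12). Fcgr3 had a ratio of -1.35 (-1.76 to -0.95), Siglech of -1.26 (-1.64 to -0.90) and Fcer1g of 0.74 (0.59 to 0.90). The directions were those of the whole groups for these 4 genes. Fcrls stood at 0.40 (0.21 to 0.60) and Cd33 at -0.83 (-1.41 to -0.27), farther apart than in the whole groups, and the interval of Fcgr2b, -0.35 (-1.07 to 0.33), took in 0.

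The genes of the type I interferon response were higher in the main IRF8KO cells: all 23 of the 28 listed genes that had at least 10 CPM in either group, 19 of them at least 2-fold. Most of the 23 reached 10 CPM only in the main IRF8KO cells. Among all 8859 genes with at least 10 CPM in either group, 25.1% were higher and 5.61% at least 2-fold higher. Cells were ranked by their share of UMIs in the 28 genes, none of them a member, after thinning. Because many cells share a value, the ranges held 60.5%, 30.3% and 9.23% of the main IRF8KO cells (2728, 1365 and 416 cells) and 78.4%, 13.4% and 8.18% of WT cells, in place of the planned 50, 40 and 10%. The top range began at an interferon share of 0.4% in the main IRF8KO cells and 0.15% in WT cells, so the ranges are not matched between libraries and are ranges of a score, not cell types.

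Fcgr1 in the main IRF8KO cells was 117 CPM in the lower range (108 to 127), 130 CPM in the middle (117 to 144) and 266 CPM in the top (232 to 303), 2.26-fold higher in the top than in the lower (1.93 to 2.64). Fcgr4 was 26, 30.8 and 85.3 CPM, 3.28-fold higher in the top (2.43 to 4.39), and Siglec1 14.8, 26 and 51.7 CPM, 3.48-fold higher (2.35 to 5.10). Fcgr3 and Fcgr2b were level, at 0.986-fold (0.893 to 1.09) and 1.12-fold (0.919 to 1.36). Siglech (1.02-fold, 0.944 to 1.09) and Siglece (1.07-fold, 0.863 to 1.32) did not differ beyond counting error either, while Fcer1g was 1.17-fold (1.12 to 1.21), Fcrls 0.908-fold (0.859 to 0.959) and Cd33 0.892-fold (0.797 to 0.996). Thus Fcgr1, Fcgr4 and Siglec1 differed by more than 2-fold along the interferon share and the other 7 genes by much less.

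In the 43 cells of the top 1%, a range added after the data were seen, Fcgr1 reached 744 CPM (573 to 950), above the WT level of 401 CPM, and Fcgr4 279 CPM (179 to 415). Siglec1 stood at 58.1 CPM there (18.9 to 136, 5 UMIs). Against the lower range, Fcer1g was 1.58-fold (1.43 to 1.74) and Fcrls 0.641-fold (0.526 to 0.775). The intervals of Fcgr2b, Fcgr3, Siglech, Cd33 and Siglece took in an equal level. The activating to inhibitory ratio was 5.43 in the lower range (5.01 to 5.88), 6.18 in the top (5.10 to 7.53) and 11.5 in the top 1% (6.24 to 23.7), with 11 Fcgr2b UMIs in the last. In WT cells the top range differed little from the lower: Fcgr1 1.14-fold (0.990 to 1.31), Fcgr4 1.54-fold (0.785 to 2.78) and a ratio of 5.54 against 5.80. At resolution 1.0, 29 WT cells formed a cluster led by Fgl2, Mx1 and Ifit2, in which Fcgr1 stood at 733 CPM (577 to 919) and Fcgr3 at 1056 CPM (866 to 1275).

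**Figure D5:**
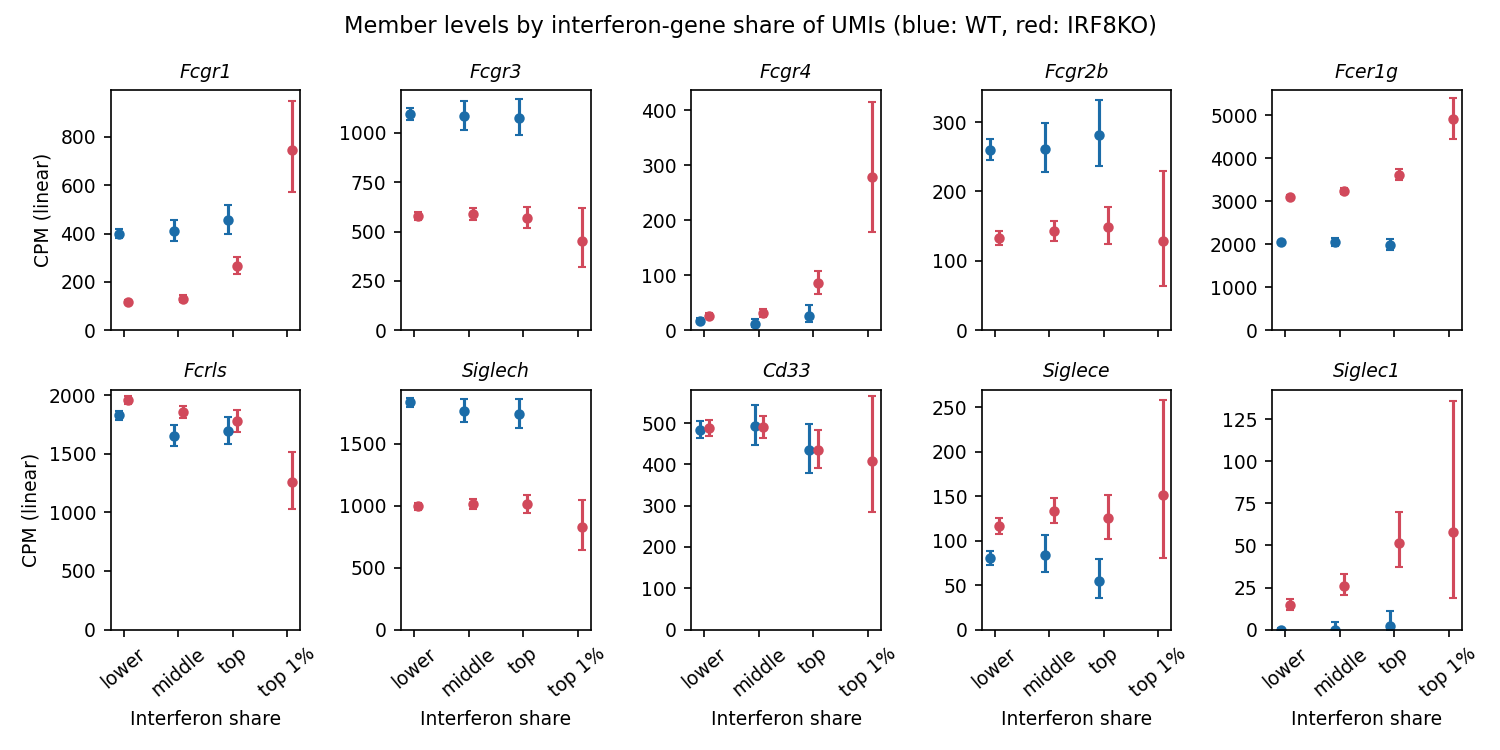
Level of each gene (CPM, linear axis from 0) in thinned WT cells (blue) and main IRF8KO cells (red) by range of interferon-gene share, the top 1% being part of the top range and shown for IRF8KO only; bars are exact 95% Poisson intervals. Fcgr1, Fcgr4 and Siglec1 are higher in the top IRF8KO range, while Fcgr3, Fcgr2b and Siglech stay level.

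Genes with a pattern across cells like that of a member were few. Over the 3019 thinned WT cells, Pearson's r of log counts reached 0.2 only for Fcer1g with Cst3, the cystatin C gene (0.22). Over the 4509 thinned main IRF8KO cells it did so for Fcer1g with C1qb, of complement C1q (0.20), and for Fcrls with Cst3 and the cathepsin gene Ctsd (0.31 and 0.30). These are abundant genes, and the cells of 1 library share its depth, so these values are descriptions.

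Of 26 genes of the ITAM pathway, 24 had at least 10 CPM in either group, of which 22 were lower (5 at least 2-fold) and 2 higher, with a median log2 ratio of -0.47 against -0.28 over all genes. Of all 8859 genes, 74.9% were lower and 9.28% at least 2-fold lower. Under TMM scaling 17 of the 24 were lower, 2 of them at least 2-fold, and 52.6% of the same 8859 genes were lower. Syk, the kinase that docks on ITAMs, went from 125 to 81.1 CPM (log2 ratio -0.62). The largest differences were in Fyn, a Src-family kinase (-4.01), the phosphoinositide 3-kinase subunits Pik3r5 (-1.31) and Pik3r1 (-1.06), and the adaptor Lat2 (-1.15). Fyn reached 10 CPM in WT cells only (17.9 against 1.11 CPM, 331 against 21 UMIs). Tyrobp and Src were the 2 higher genes.

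Of 11 genes of the ITIM pathway, 10 had at least 10 CPM, 8 of them lower (1 at least 2-fold) and 2 higher, with a median of -0.42. Those shares are near those of all genes, of which 74.9% were lower and 9.28% at least 2-fold lower, and under TMM scaling 6 of the 10 were lower. The paired receptor Pirb (-1.76), Sirpa, the receptor for CD47 (-0.99), the adaptor Dok1 (-0.81) and the lipid phosphatase Inppl1 (-0.64) differed most. Pirb reached 10 CPM in WT cells only (29.9 against 8.85 CPM). Inpp5d, which encodes SHIP1, was -0.42 and Ptpn6, which encodes SHP-1, -0.06. The medians of both pathways lay close to each other.

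Of 12 other Fc receptor genes, 3 had at least 10 CPM: Fcrl1, a B cell Fc receptor-like gene (-3.39; 39.2 CPM in WT cells, 3.74 in the main IRF8KO cells), Fcgrt, the neonatal Fc receptor (-0.54), and Trim21, a cytosolic antibody receptor (0.05). Of 5 other Siglecs, 3 had at least 10 CPM and all were at least 2-fold lower: Siglecg (-6.12; 204 UMIs in WT cells, 3 in the main IRF8KO cells), Siglecf (-2.17) and Mag, the myelin-associated glycoprotein (-1.19). Of all 8859 genes with at least 10 CPM in either group, 9.28% were at least 2-fold lower. Siglecg and Siglecf reached 10 CPM in WT cells only. Of the B cell markers, Pax5 was at 0 in both groups, while Cd79b was 49.0 CPM in WT cells and 4.21 CPM in the main IRF8KO cells. Their part in the Fcrl1 and Siglecg differences was not tested.

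Enzymes that make, move or remove the sialic acid that Siglecs bind differed in both directions, 6 of 16 higher and 10 lower with 3 at least 2-fold in each direction (19 listed; median -0.14). Among all 8859 genes with at least 10 CPM in either group, 5.61% were at least 2-fold higher and 9.28% at least 2-fold lower. Of the 3 genes at least 2-fold higher, Cmah (3.18 to 15.7 CPM) and St3gal1 (4.10 to 12.5 CPM) reached 10 CPM in the main IRF8KO cells only. Cmah, which turns the acetyl form of sialic acid into the glycolyl form (2.30), and St8sia4, a polysialyltransferase (2.11), were higher. St3gal5, which makes the ganglioside GM3 (-1.94), and St6galnac4 (-1.86) were lower.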

How the data were processed

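The submitters' processing notes name the build mm10, Cell Ranger 3.1, bcl2fastq and Scanpy; the version in the matrices is 3.1.0 (format 2), per the file headers. The deposited values are UMI counts per gene and cell barcode. The labels' protocols name a full-length kit beside the droplet platform; the matrices were used as droplet counts. The members and lists were chosen with earlier results of these data known.

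Cells were kept from 1000 UMIs and 500 genes upward, with mitochondrial UMIs of 10% or less: 3304 of 3504 WT barcodes and 5105 of 5303 in the library labelled IRF8KO, of library totals of 18706147 and 19998075 UMIs. No doublet caller was run. UMIs were summed per group and scaled to CPM with exact Poisson intervals, ratios have exact conditional binomial intervals, and shares have Clopper-Pearson intervals. A count of 0 was set to a floor of 3 counts over the group. Shares used cells thinned to 2000 UMIs, which left out 285 WT cells, 498 main and 1 other IRF8KO cells. Clusters used 2000 variable genes without the members, 30 components and 15 neighbours (scanpy 1.11.5, leidenalg 0.10.2). The ratio intervals were tested on simulated data. The rule named all members, the 4 listed genes with the largest absolute log2 ratio of each list, and genes with r of at least 0.2; further genes named were chosen after their values were seen. Alternatives covered scaling (TMM of edgeR 4.0.16), cell filters, the 2% limit, the CPM minimum, thinning and resolution. Protein motifs were not analysed here, and a few genes that the rule or lists name are not reported here.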

Additional observations from a re-analysis of the deposited data

How the results depend on the processing

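The cell filters, the limit on neutrophil genes and the weighting of cells changed no direction among the 10 log2 ratios of the main IRF8KO cells over WT. A limit of 1% left the same main IRF8KO cells, whose highest share in the neutrophil genes was 0.232%, so its values could not differ. Over 110 alternative values of the 10 log2 ratios, those of the 1% limit counted, 2 reversed. Both were of Cd33: 0.18 under TMM scaling and 0.062 with totals free of mitochondrial and ribosomal protein genes. These scalings moved the median of all genes by 0.26 and 0.15 on the log2 scale. TMM put 2 members at least 2-fold higher, Fcgr4 (1.07) and Siglec1, in place of 1; a minimum of 50 CPM left 0, since Siglec1 lies below it. The log2 change of the activating to inhibitory ratio was 0.063 without Fcgr1 and -0.369 without Fcgr3, as the sets then hold other genes. Siglece in the other over the main IRF8KO cells reversed to 0.44 with totals free of the 6 neutrophil genes. A pseudocount of 1 CPM lowered the Siglec1 ratio from 6.82 to 4.38. Between the large IRF8KO clusters the highest level was 7.78-fold the lowest for Fcgr4 and 1.07-fold for Fcer1g at resolution 0.5, and 14.6-fold and 1.79-fold at resolution 1.0. No difference in the share of cells with a UMI reversed with thinning to 1000 UMIs or none. No paired analysis was possible because each group is 1 library, and for the same reason no replicate could be left out. Depth limits Fcgr1, Fcgr4 and Siglec1 in the other IRF8KO cells (9, 11 and 1 UMIs).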
